A study of Mus musculus with 8 samples.

Results

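Hmgcs1, Idi1, Fdps, Sqle, Ebp, Srebf2 and Insig1 are 7 genes of cholesterol synthesis and of its control by sterol regulatory element-binding protein 2 (SREBP2). They were taken by symbol from a table of 24354 mouse genes, and all 7 were found once each. RNA sequencing had been done on 4 groups of 2 libraries, namely EPSCs, NSCs, the hybrid cells made from both, and ESCs. ESCs were the E14 line, wild type by their label, kept with serum and leukemia inhibitory factor (LIF) on inactivated fibroblast feeder cells. NSCs carried 1 copy each of the OG2 transgene, an Oct4-driven GFP, and of the ROSA26 lacZ transgene, and grew on gelatin without serum in N2 medium with albumin, EGF and FGF2. EPSCs, also labelled wild type, came from 8-cell C57BL/6 embryos and were sequenced at passage 15. They grew on feeder cells in N2B27 medium, which held Knockout serum replacement, with LIF, CHIR99021, dimethindene maleate and minocycline (LCDM). Hybrid cells were made by fusing EPSCs with these NSCs in polyethylene glycol, were picked for GFP, were near-tetraploid, and were sequenced at passage 10 in the medium and on the feeders used for EPSCs. Both libraries of a group came from 1 line, so the spread between them may be technical and says nothing of other lines or fusions. Cell type, line and medium differed together between ESCs, NSCs and EPSCs, and NSCs alone grew without feeders, so the parts of these in a difference cannot be told apart. EPSCs and hybrid cells shared medium and feeders but not genome or ploidy.

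Cholesterol is built from acetyl-CoA through mevalonate, farnesyl diphosphate and squalene, and squalene is then closed into lanosterol and trimmed to cholesterol. When sterols run low in the endoplasmic reticulum, the escort SCAP carries SREBP2 to the Golgi, where it is cut and released as a transcription factor for nearly all enzymes of the route. When sterols are plentiful, INSIG proteins hold SCAP and SREBP2 back. Srebf2 and Insig1 are themselves targets of SREBP2. Dividing cells make or take up cholesterol for new membranes, and cells of the brain are known to rely on synthesis within the brain.

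SREBP2 is known to act with NF-Y, which binds CCAAT, and with Sp1, which binds GC-rich letters, so the promoters show what these genes share in sequence. The 250 bases before the annotated start are printed for the 5 genes with an entry in the promoter table used here, from RefSeq on GRCm38, each read 5′ to 3′ on the strand of its gene. Sqle and Fdps had no entry. Capitals mark CCAAT on either strand, which reads ATTGG when it lies on the other strand, and TCACNCCAC on either strand, the letters of a sterol regulatory element (SRE).
Hmgcs1 (chr13:119690101-119690350, plus strand): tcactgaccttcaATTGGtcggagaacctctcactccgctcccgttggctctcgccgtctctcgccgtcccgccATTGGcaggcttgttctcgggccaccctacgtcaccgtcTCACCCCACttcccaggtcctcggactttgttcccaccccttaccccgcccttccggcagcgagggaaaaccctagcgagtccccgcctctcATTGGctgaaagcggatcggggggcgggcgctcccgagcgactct
Idi1 (chr13:8885356-8885605, plus strand): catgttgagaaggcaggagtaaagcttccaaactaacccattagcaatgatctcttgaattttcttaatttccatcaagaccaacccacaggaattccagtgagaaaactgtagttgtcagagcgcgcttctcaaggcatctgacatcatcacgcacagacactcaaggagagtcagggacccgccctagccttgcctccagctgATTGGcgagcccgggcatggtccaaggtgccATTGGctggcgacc
Ebp (chrX:8193513-8193762, minus strand): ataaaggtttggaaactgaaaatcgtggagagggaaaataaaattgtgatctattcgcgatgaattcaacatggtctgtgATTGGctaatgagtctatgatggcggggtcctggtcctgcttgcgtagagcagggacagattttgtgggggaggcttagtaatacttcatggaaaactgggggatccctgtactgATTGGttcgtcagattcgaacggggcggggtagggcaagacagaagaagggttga
Srebf2 (chr15:82147019-82147268, plus strand): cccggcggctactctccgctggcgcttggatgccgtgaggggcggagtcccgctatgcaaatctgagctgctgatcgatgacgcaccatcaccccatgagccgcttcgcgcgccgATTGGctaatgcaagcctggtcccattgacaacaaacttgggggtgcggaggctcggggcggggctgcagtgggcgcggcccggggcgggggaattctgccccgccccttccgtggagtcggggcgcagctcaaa
Insig1 (chr5:28071162-28071411, plus strand): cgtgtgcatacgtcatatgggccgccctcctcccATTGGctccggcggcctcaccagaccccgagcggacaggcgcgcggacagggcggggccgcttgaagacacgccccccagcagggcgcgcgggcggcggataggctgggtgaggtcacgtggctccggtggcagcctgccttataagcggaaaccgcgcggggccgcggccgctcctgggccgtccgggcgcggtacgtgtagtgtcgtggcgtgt
All 5 windows held CCAAT, 3 times in Hmgcs1, 2 times in Idi1 and Ebp and 1 time in Srebf2 and Insig1. All of these matches lay on the strand opposite to the gene. GGGCGG, the Sp1 letters, were also in all 5 windows on 1 strand or the other, and no match overlapped that of another motif. The SRE letters were matched in Hmgcs1 alone, as TCACCCCAC from base -137 to -129 relative to the start. Only the exact letters TCACNCCAC were sought, so a window without this match may still hold another form of the element. Over the whole promoter table, 37.5% of 27025 genes held CCAAT in such a window, 35.4% held GGGCGG and 1.22% held TCACNCCAC. Of the 16 genes of a 21-gene cholesterol synthesis list with an entry, 15 held CCAAT, 15 held GGGCGG and 1 held the SRE letters. These are matches of letters and were not tested for binding.

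**Figure D1:**
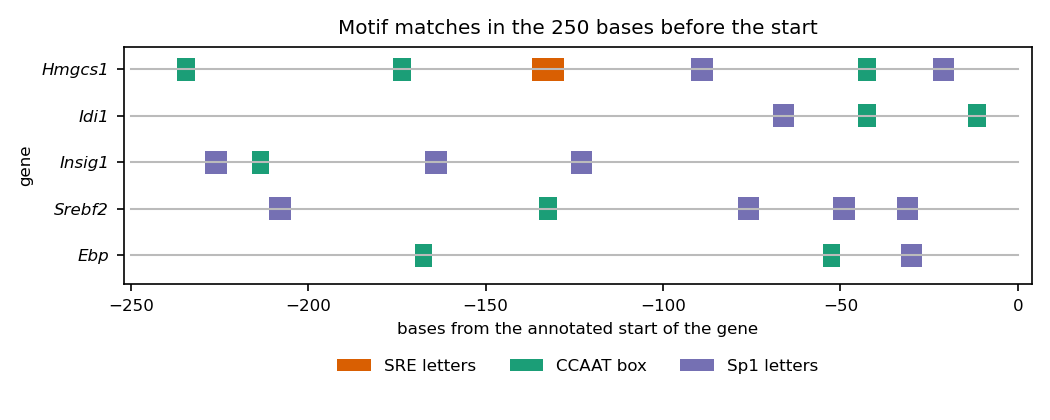
Positions of letter matches in the 250 bases before the start of 5 genes (horizontal axis, bases from the annotated start). Green blocks are CCAAT, purple blocks are GGGCGG and the orange block is TCACNCCAC, all on either strand, and the orange block appears in Hmgcs1 only.

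The values are FPKM, fragments per kilobase of transcript per 1000000 mapped fragments, as the authors deposited them. The depth estimated from the steps between FPKM values was 22.02 to 32.54 in units of 1000000 fragments per library, at an assumed fragment length of 200 bases. A transcript of 2 kb with 3 fragments would then read 0.0512 to 0.0756 FPKM, a floor for counting error only, and the lowest value among the 7 genes was 10.2 FPKM. Groups were compared with limma on log2(FPKM + 1) in 1 fit of all 8 libraries, and a gene was called at a Benjamini-Hochberg adjusted p under 0.05 over 13239 tested genes. This scale understates the folds of genes near or under 1 FPKM in a group, and a fold written without log2 is the ratio of mean FPKM. Markers followed the labels: 7 pluripotency markers summed to 0.52 and 0.55 FPKM in NSCs, where 5 of them were at 0, and to between 4589 and 5547 FPKM in the other groups. Likewise 7 neural stem cell markers summed to 3692 and 3738 FPKM in NSCs and to 10.8 to 19.4 FPKM elsewhere. Fibroblast markers, 8 genes, summed to 1.09 and 1.23 FPKM in NSCs, 11 and 12.2 in ESCs, 83.2 and 80.3 in EPSCs and 318 and 237 in hybrid cells. These 8 include Postn, which the study itself used as an EPSC-specific gene. In bulk libraries fewer cells of a type and less RNA per cell cannot be told apart.

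The levels of the 7 genes are given first for the mevalonate enzymes. Hmgcs1 encodes the cytosolic HMG-CoA synthase and lies on chromosome 13 from 119690351 to 119708260. It was at 517 and 501 FPKM in NSCs, 116 and 119.9 in EPSCs, 69.8 and 70.5 in ESCs and 66.5 and 69.1 in hybrid cells. Its NSC libraries stood far above all others, and it varied most of the 7 genes, with an SD of 1.25 over the 8 libraries on the log2(FPKM + 1) scale. Idi1, the isopentenyl diphosphate isomerase, lies on the same chromosome from 8885606 to 8892396. It was at 31.6 and 34.9 FPKM in NSCs, 18.5 and 17.4 in EPSCs, 10.3 and 10.2 in ESCs and 12.02 and 12.45 in hybrid cells. Fdps, on chromosome 3 from 89093588 to 89101967, makes farnesyl diphosphate, from which sterols, ubiquinone, dolichol and protein prenyl groups branch. It was at 225 and 233 FPKM in NSCs, 147 and 137 in EPSCs, 95.4 and 91.6 in ESCs and 99.9 and 103 in hybrid cells. For both genes the 4 groups kept the same order and no libraries of different groups overlapped.

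Of the enzymes after squalene, Sqle encodes squalene epoxidase, an early and rate-limiting oxygen-dependent step, on chromosome 15 from 59315092 to 59331193. It was at 127 and 135 FPKM in NSCs, 64.9 and 63.4 in EPSCs, 32.9 and 34.3 in ESCs and 46.7 and 44.6 in hybrid cells. The levels again fell from NSCs to EPSCs, hybrid cells and ESCs without overlap. Ebp, the sterol isomerase that moves a double bond late in the route, lies on chromosome X from 8185329 to 8193512. It was at 35.5 and 33.0 FPKM in hybrid cells, 17.6 and 16.4 in ESCs, 26.6 and 25.9 in EPSCs and 16.2 and 14.8 in NSCs. Here hybrid cells were highest and NSCs lowest as deposited, unlike in the other 6 genes, and no libraries of different groups overlapped. With libraries scaled to an equal sum, Ebp was lower in ESCs than in NSCs (log2 -0.41).

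Of the control genes, Srebf2 encodes SREBP2 and lies on chromosome 15 from 82147269 to 82205379. It was at 115 and 114 FPKM in NSCs, 61.2 and 69.9 in EPSCs, 50.0 and 49.8 in ESCs and 49.4 and 54.8 in hybrid cells. The hybrid and ESC libraries overlapped, and the others did not. Insig1, the sterol-sensing retention protein, lies on chromosome 5 from 28071412 to 28078662. It was at 119 and 124 FPKM in NSCs, 82.9 and 87.0 in EPSCs, 37.0 and 36.0 in ESCs and 39.6 and 44.3 in hybrid cells. On the log2 scale of the values as deposited, Insig1 came closest of the 7 genes between NSCs and EPSCs. With libraries scaled to an equal sum, Ebp came closest (log2 0.14, against -1.12 for Insig1). Insig1 also had the widest gap of the 7 genes between EPSCs and hybrid cells. In annotation, exons of Hmgcs1 and Idi1 are overlapped by a predicted gene on the opposite strand (Gm48342 and Gm48574) and exons of Fdps by 1 on the same strand (Gm43738). The table lists none of these 3, and whether the counting used strand is not given in the sources used here. The libraries of the groups also did not overlap for 92.7% of tested genes in hybrid cells against NSCs, 92.9% in EPSCs against NSCs, 94.7% in ESCs against NSCs, 83.3% in EPSCs against ESCs, 83.8% in hybrid cells against ESCs and 68.1% in hybrid cells against EPSCs, so separate groups alone do not set these genes apart.

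**Figure D2:**
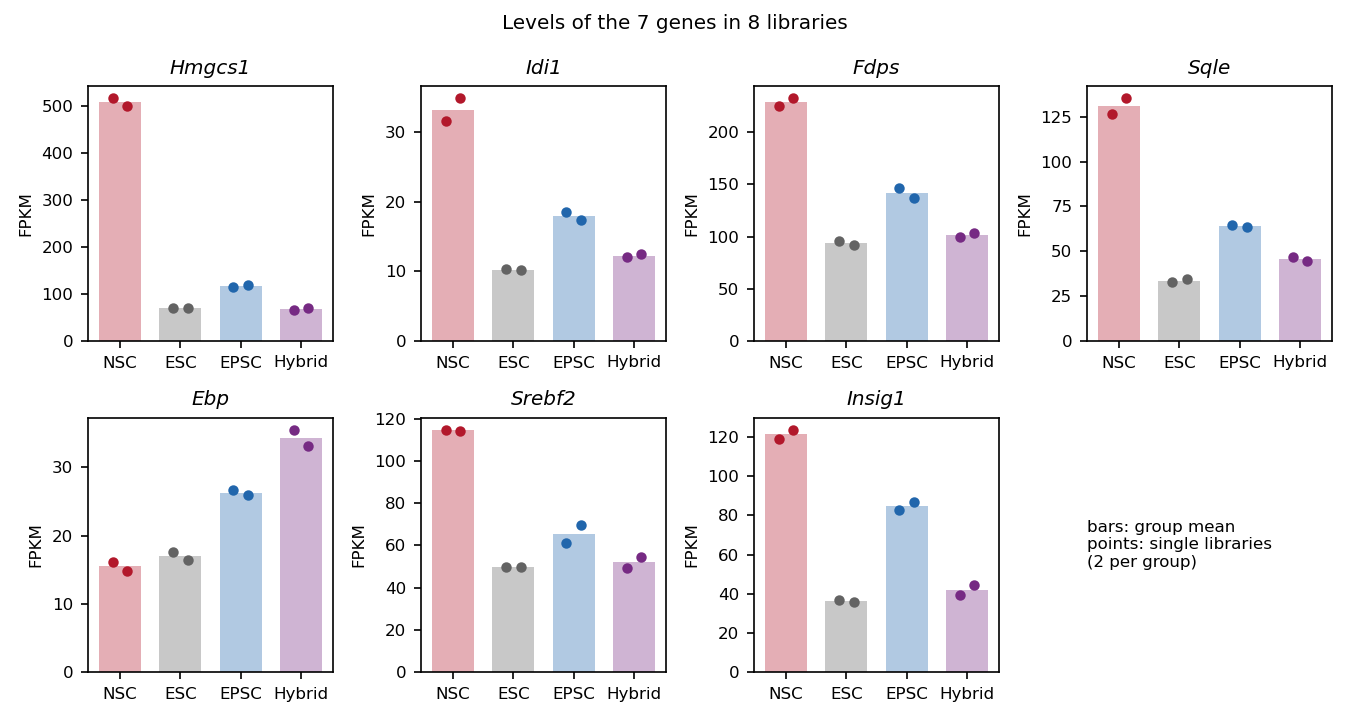
FPKM of the 7 genes (vertical axes, each from 0) in NSCs, ESCs, EPSCs and hybrid cells. Bars are group means and points are the 2 libraries of each group. In 6 panels the NSC bar is the tallest and EPSCs come next, and in the Ebp panel hybrid cells are the tallest at 35.5 and 33.0 FPKM.

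The first comparisons ask how the pluripotent groups differed from the somatic parent. In hybrid cells against NSCs, 6 of the 7 genes were lower, where 42% of all tested genes were lower, and Ebp was higher, where 44.5% were higher. Hmgcs1 was 7.51-fold lower in hybrid cells, a log2 fold change of -2.89 (SE 0.05, limma adjusted p = 3.57e-09). Insig1 was 2.89-fold, Sqle 2.87-fold, Idi1 2.72-fold, Fdps 2.25-fold and Srebf2 2.196-fold lower, with limma adjusted p between 1.32e-07 and 3.45e-06. Ebp was 2.21-fold higher (log2 1.09, SE 0.07, limma adjusted p = 2.56e-06). By the rule in the study's methods, a mean over 3 FPKM in the higher group and a ratio over 3, only Hmgcs1 passed among the 7, where 8.87% of the 24354 genes were lower by that rule. Taking the mean of the higher group was a choice made here, since the methods do not name the group. The text of the study also gives this rule with both thresholds at 2, and then all 7 passed, 6 of them lower, where 13.6% of all genes were lower, and Ebp higher, where 12.5% were.

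EPSCs differed from NSCs in the same directions, with 6 genes lower, where 41% of tested genes were lower, and Ebp higher, where 45.2% were. The decrease was largest for Hmgcs1 (log2 -2.10, SE 0.05, limma adjusted p = 1.34e-08) and smallest for Insig1 (log2 -0.51, SE 0.07, limma adjusted p = 1.53e-04). ESCs were lower than NSCs for 6 genes, where 41.9% of tested genes were lower, from -2.84 for Hmgcs1 to -1.18 for Srebf2 on the log2 scale. By the rule with thresholds of 3, Hmgcs1, Sqle, Idi1 and Insig1 were lower in ESCs than in NSCs, where 8.65% of all genes were. In EPSCs only Hmgcs1 was, where 8.94% were. With thresholds of 2, 6 genes were lower in ESCs and only Hmgcs1 and Sqle in EPSCs, where 13.4% of all genes were in each. Ebp was at 16.98 ± 0.848 FPKM in ESCs and 15.5 ± 0.975 in NSCs (SD, n = 2), a log2 difference of 0.12 (SE 0.07) that was not called (limma adjusted p = 0.141), where 42.8% of tested genes were higher. These 3 comparisons share the NSC libraries. Against NSCs, the 8 fibroblast markers were all called higher in hybrid cells and EPSCs and 7 of them in ESCs, with median log2 fold changes of 5.22, 3.49 and 0.83, and their part was not tested. FPKM summed to 415239.7 and 415412.4 in the NSC libraries and to 600674.0 to 653796.4 elsewhere. Scaling all libraries to an equal sum moved the median of all tested genes in hybrid cells against NSCs from 0.06 to -0.51, and in ESCs against NSCs from 0.03 to -0.47. On that scale Ebp stayed higher in hybrid cells than in NSCs (log2 0.51) but was no longer called in EPSCs (log2 0.14, where the median was -0.48) and was lower in ESCs (log2 -0.41). The other 6 genes were lower than in NSCs on either scale.

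The next comparison sets the pluripotent groups side by side. EPSCs exceeded ESCs for each of the 7 genes, where 33.7% of tested genes were higher, and none was lower, where 27.3% were. The differences ran from 0.38 for Srebf2 (SE 0.08, limma adjusted p = 0.00369) to 1.20 for Insig1 (SE 0.07, limma adjusted p = 1.2e-05) on the log2 scale, and Sqle was 1.91-fold higher. None reached the ratio of 3 in the rule, which 1.28% of all genes passed upward, and with both thresholds at 2 only Insig1 passed, where 3.51% of all genes did. In hybrid cells against ESCs, 4 genes were higher, where 35.3% of tested genes were higher, and none was lower, where 30.2% were. The 4 were Ebp (log2 0.97, SE 0.07), Sqle (0.43, SE 0.06), Idi1 (0.24, SE 0.07) and Insig1 (0.19, SE 0.07). Hmgcs1 (log2 -0.05, SE 0.05), Fdps (0.12, SE 0.05) and Srebf2 (0.06, SE 0.08) were not called, with limma adjusted p of 0.41, 0.0894 and 0.526. The calls of Idi1 and Insig1 were lost when hybrid library 2 or either ESC library was left out, which left 2 of the 4, and with libraries scaled to an equal sum (limma adjusted p = 0.0613 and 0.174). That of Insig1 was lost in 9 alternatives in all, also after quantile normalization, with only the 2 groups fitted, without the trend and without either NSC library, at limma adjusted p of 0.0508 to 0.0816 in these 5. For these 2 genes the fold was 1.19 and 1.15. None of the 7 passed the rule with thresholds of 3, by which 3.63% of all genes differed. With thresholds of 2 only Ebp passed, as higher, where 4.69% of all genes were. Fibroblast markers were called higher than in ESCs for 7 of 8 genes in EPSCs (median log2 2.49) and for all 8 in hybrid cells (median 4.20), and their part in these differences was not tested.

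The last pairwise comparison sets hybrid cells against the EPSC parent, which shared their medium. Here 6 of the 7 genes were lower in hybrid cells, where 21.9% of tested genes were lower, and Ebp was higher, where 22.5% were higher. Insig1 was 2.02-fold lower (log2 -1.002, SE 0.07, limma adjusted p = 0.000119) and Hmgcs1 1.74-fold lower (log2 -0.79, SE 0.05, limma adjusted p = 9.89e-05). Idi1 (log2 -0.52, SE 0.07), Sqle (-0.48, SE 0.06) and Fdps (-0.48, SE 0.05) fell by similar amounts. Srebf2 differed least (log2 -0.33, SE 0.08, limma adjusted p = 0.0123), and its call was lost without EPSC library 2 (adjusted p = 0.0519), without hybrid library 1 (adjusted p = 0.052) and with only the 2 groups fitted (adjusted p = 0.0811). Ebp was 1.30-fold higher (log2 0.37, SE 0.07, limma adjusted p = 0.00541). None of the 7 passed the rule with thresholds of 3, by which 0.866% of all genes differed here, and with thresholds of 2 only Insig1 was lower, where 1.16% of all genes were. The 8 fibroblast markers were all called higher in hybrid cells than in EPSCs, with a median log2 fold change of 1.68, and their part in these differences was not tested.

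Against the mean of both parents on the log2 scale, 6 genes were lower in hybrid cells, where 38.5% of tested genes were lower, and Ebp was higher, where 38.7% were. The log2 differences were -1.84 for Hmgcs1, -1.26 for Insig1, -0.99 for Sqle, -0.94 for Idi1, -0.82 for Fdps, -0.72 for Srebf2 and 0.73 for Ebp. The mean of the hybrid cells lay outside the range of the means of both parents for all 7 genes. With NSCs set to 0 and EPSCs to 1, they stood at 1.37 for Hmgcs1, 1.41 for Srebf2, 1.47 for Sqle, 1.51 for Ebp, 1.60 for Idi1, 1.70 for Fdps and 2.97 for Insig1. For Ebp this means above EPSCs and for the other 6 below them. Insig1 was also the gene whose parents differed least, by -0.51 on the log2 scale. With libraries scaled to an equal sum, its parents differed by -1.12 and its position was 1.90, while Ebp, whose parents then differed by only 0.14, stood at 3.59 and the other 5 at 1.24 to 1.37. On the values as deposited, the synthesis list and the 7 genes together held 20 genes whose parents differed by over 0.5 in log2(FPKM + 1), of which 18 stood beyond 1, and the median of the 20 was 1.39. Of all 9460 tested genes with such a parent difference, 42.5% stood beyond 1, with a median of 0.97. Of the 20 genes, 13 were called lower than each parent, where 7.35% of those 9460 genes were, in 2 comparisons that share the hybrid libraries. All of the 20 but Ebp and Lbr were lower in EPSCs than in NSCs, while the 9460 genes hold both directions. The 7.35% is therefore not a share over genes of the same parent direction.

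**Figure D3:**
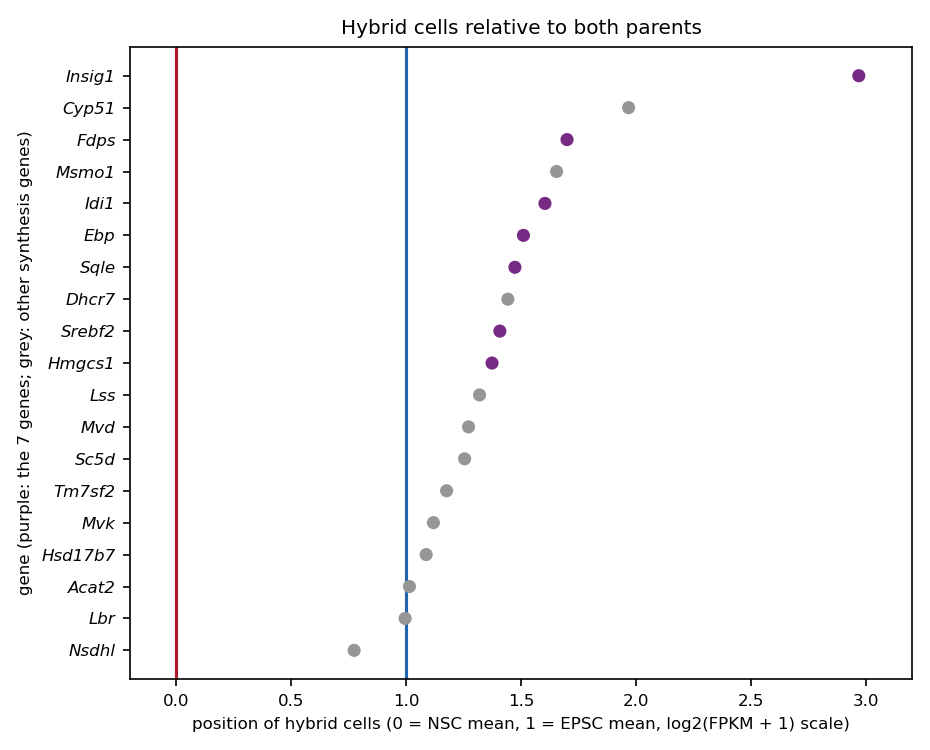
Position of hybrid cells between their parents for 19 of the 20 genes (horizontal axis, 0 at the NSC mean in red and 1 at the EPSC mean in blue, on the log2(FPKM + 1) scale). Purple points are the 7 genes and grey points the other synthesis genes. All purple points lie right of 1, with Insig1 farthest at 2.97 (1.90 with libraries scaled to an equal sum, where Ebp is farthest at 3.59), and Nsdhl and Lbr do not pass 1.

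The whole route was then followed through the list of 21 synthesis genes, which holds 5 of the 7. In hybrid cells against NSCs, 18 of the 21 were lower, where 42% of tested genes were, and 2 higher, where 44.5% were, with a median log2 fold change of -1.50, beside 0.06 over all tested genes. The 8 mevalonate genes had a median of -1.27 and the 13 genes from squalene on a median of -1.69. Dhcr7, which makes cholesterol from 7-dehydrocholesterol, was 4.82-fold lower, Cyp51, the lanosterol demethylase, 4.03-fold lower, and Mvk, mevalonate kinase, 4.01-fold lower. The 2 genes higher than in NSCs were Ebp and Lbr. Lbr, a sterol reductase that also anchors chromatin at the nuclear lamina, was 2.51-fold higher (log2 1.30, SE 0.06, limma adjusted p = 4.95e-07).

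In EPSCs against ESCs, 17 of the 21 synthesis genes were higher, where 33.7% of tested genes were, and 1 lower, where 27.3% were, with a median of 0.60 beside 0.04 over all tested genes. Dhcr7 was 2.49-fold higher. Mvk was the exception, at 11.8 and 12.7 FPKM in EPSCs and 16.3 and 15.3 in ESCs (log2 -0.35, SE 0.10, limma adjusted p = 0.0163), and its call was lost without either ESC library or without EPSC library 1. In hybrid cells against EPSCs, 12 of the 21 were lower, where 21.9% of tested genes were, and 2 higher, where 22.5% were, with a median of -0.34 beside 0.00 over all tested genes. With only the 2 groups fitted, 9 were lower and 1 higher, where 10.4% and 10.8% of tested genes were. Cyp51 fell most of the 21, from 44.9 and 49.3 FPKM in EPSCs to 21.3 and 25.9 in hybrid cells (log2 -0.97, SE 0.09, limma adjusted p = 3.93e-04). Msmo1, the sterol methyl oxidase, was 1.62-fold lower, and Dhcr7 1.63-fold lower. In hybrid cells against ESCs, 13 were higher, where 35.3% of tested genes were, and 2 lower, where 30.2% were, with a median of 0.29 beside 0.04 over all tested genes. The 2 lower genes were Mvk (log2 -0.55, SE 0.10) and Lss, lanosterol synthase (log2 -0.34, SE 0.08). Summed over the 21 genes, transcripts reached 1927 and 1936 FPKM in NSCs, 943 and 945 in EPSCs, 608 and 597 in ESCs and 705 and 764 in hybrid cells.

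**Figure D4:**
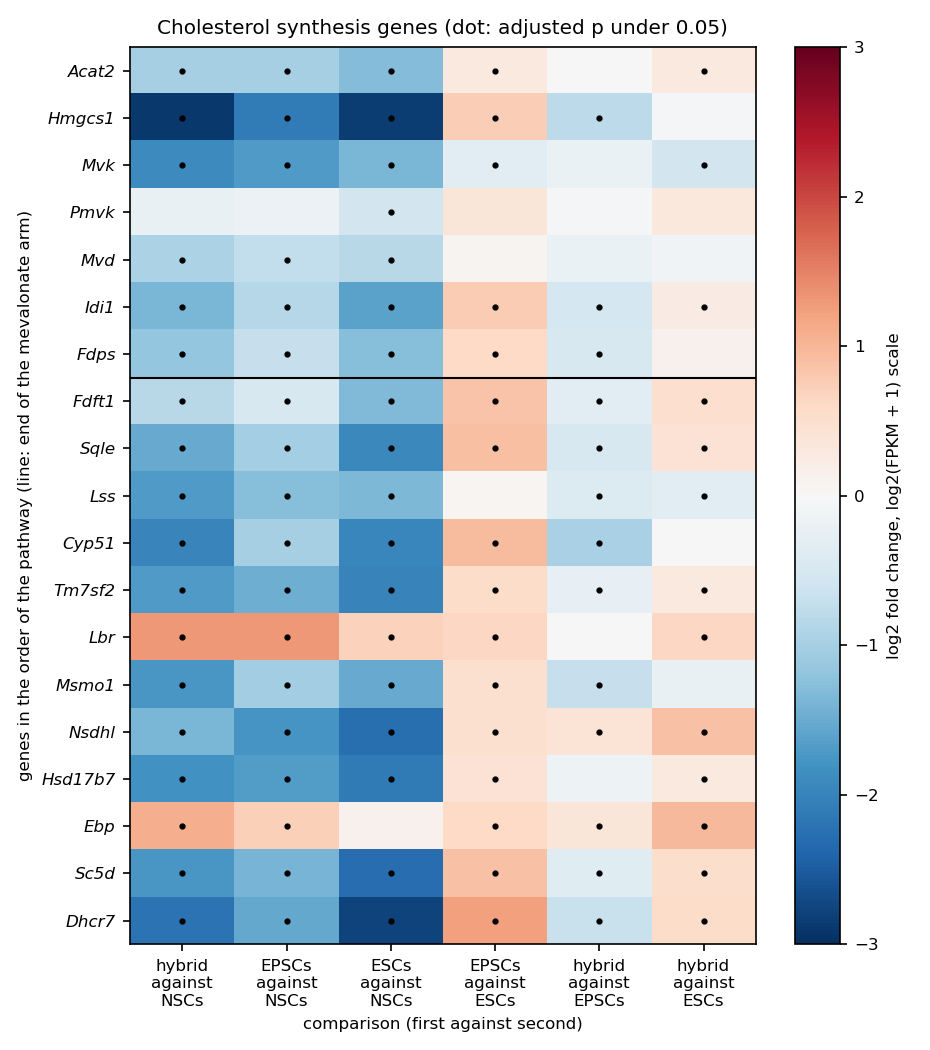
Log2 fold changes on the log2(FPKM + 1) scale (color) of 19 of the 21 cholesterol synthesis genes in the order of the route (rows) in 6 comparisons (columns). Blue is lower and red higher in the first group, and a dot marks an adjusted p under 0.05 with limma. The 3 columns against NSCs are blue except for Lbr and Ebp, the column of EPSCs against ESCs is red except for Mvk, and with libraries scaled to an equal sum Ebp in ESCs against NSCs turns lower. The column of hybrid cells against EPSCs is pale, with red for Ebp and Nsdhl.

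The 2 synthesis genes called higher in hybrid cells than in EPSCs, Ebp and Nsdhl, are both on chromosome X. Nsdhl, which acts with Msmo1 to remove the methyl groups at carbon 4, was at 22.5 and 25.1 FPKM in hybrid cells, 12.5 and 12.4 in ESCs, 16.8 and 18.8 in EPSCs and 62.0 and 64.3 in NSCs. It was 1.34-fold higher in hybrid cells than in EPSCs (log2 0.40, SE 0.08, limma adjusted p = 0.00528, or 0.0576 and not called with only the 2 groups fitted) and 1.91-fold higher than in ESCs. Unlike Ebp, it was 2.65-fold lower than in NSCs. Over the 487 tested genes of chromosome X, 29% were called higher in hybrid cells than in EPSCs and 10.3% lower, beside 22.5% and 21.9% of all tested genes, with a median log2 difference of 0.08. Against ESCs, 46.8% were called higher and 16% lower, beside 35.3% and 30.2% of all tested genes, with a median of 0.20. Against NSCs, 43.5% were called higher and 43.9% lower, beside 44.5% and 42% of all tested genes, with a median of 0.04. In EPSCs against ESCs, 37.6% were called higher and 17.9% lower, beside 33.7% and 27.3% of all tested genes, with a median of 0.09. Ebp differed by log2 0.37, 0.97, 1.09 and 0.60 in these comparisons, in this order, and the dosage of chromosome X was not tested.

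Genes of the machinery that controls SREBP2 did not all follow the synthesis genes. Of 17 SREBP control genes, 13 were lower and 2 higher in hybrid cells than in NSCs (median log2 -0.76), where 42% of tested genes were lower and 44.5% higher. Against EPSCs, 7 were lower and 5 higher (median -0.12), where 21.9% and 22.5% of tested genes were, so the share of higher genes, 29.4%, was near that of all genes. The 17 include Srebf2 and Insig1 of the 7 genes, and both are counted as lower in both comparisons. Scap, the escort, was at 44.2 and 43.5 FPKM in NSCs, 12.2 and 12.5 in EPSCs, 13.01 and 13.22 in ESCs and 17.03 and 18.89 in hybrid cells. It was thus higher in hybrid cells than in EPSCs (log2 0.51, SE 0.07, limma adjusted p = 0.00121) while Srebf2 was lower. Insig2, the paralog of Insig1 that is not a target of SREBP2 in the classical scheme, was at 12.002 and 13.47 FPKM in hybrid cells, 9.82 and 9.40 in NSCs, 9.72 and 9.69 in EPSCs and 5.47 and 5.78 in ESCs. It was 1.31-fold higher in hybrid cells than in EPSCs (log2 0.36, SE 0.08, limma adjusted p = 0.00922), while Insig1 was lower, but was not called with only the 2 groups fitted (limma adjusted p = 0.0743). The ratio of Insig1 to Insig2 FPKM, which does not depend on library scaling, was 12.1 and 13.2 in NSCs, 8.53 and 8.98 in EPSCs, 6.76 and 6.23 in ESCs and 3.30 and 3.29 in hybrid cells. The hybrid libraries were lowest without overlap, and this ratio was chosen after the values were seen. With 2 libraries a group, the smallest two-sided p of an exact permutation test is 0.333, so none was used.

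Srebf1, whose products drive fatty acid genes, was at 41.8 and 44.9 FPKM in NSCs, 24.8 and 25.4 in ESCs, 15.6 and 15.6 in hybrid cells and 12.2 and 13.8 in EPSCs. EPSCs therefore had more Srebf2 than ESCs but less Srebf1 (log2 -0.90, SE 0.07, limma adjusted p = 5.46e-05). The ratio of Srebf2 to Srebf1 was 5.001 and 5.074 in EPSCs, 3.17 and 3.50 in hybrid cells, 2.75 and 2.54 in NSCs and 2.01 and 1.96 in ESCs. This ratio, too, was chosen after the values were seen. Marchf6, a ligase for squalene epoxidase, was at 37.3 ± 2.09 FPKM in NSCs, 17.2 ± 0.110 in EPSCs, 15.3 ± 0.789 in ESCs and 10.955 ± 0.2261 in hybrid cells (SD, n = 2).

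Uptake genes did not all move together. Of 17 genes of lipoprotein uptake and intracellular sterol transport, 4 were lower and 8 higher in hybrid cells than in EPSCs (median log2 0.15), where 21.9% of tested genes were lower and 22.5% higher, so that the 23.5% lower was near the share of all genes. Against NSCs, 11 were lower and 6 higher (median -0.86), where 42% and 44.5% of tested genes were. Mylip, a ubiquitin ligase of lipoprotein receptors, was at 3.23 and 3.76 FPKM in hybrid cells, 1.57 and 1.91 in ESCs, 2.37 and 2.33 in EPSCs and 0.630 and 0.623 in NSCs. It was 1.49-fold higher in hybrid cells than in EPSCs (log2 0.42, SE 0.09, limma adjusted p = 0.0103, or 0.0663 and not called with only the 2 groups fitted). Npc1, which exports cholesterol from lysosomes, was at 31.4 ± 1.14 FPKM in NSCs, 15.8 ± 0.199 in EPSCs, 8.88 ± 0.0167 in ESCs and 11.04 ± 0.191 in hybrid cells (SD, n = 2). Lrp1 encodes a large receptor for apolipoprotein E among many ligands. It was at 45.7 and 43.2 FPKM in NSCs, 11.3 and 8.75 in hybrid cells and 3.91 and 4.48 in EPSCs. In hybrid cells it was 2.39-fold higher than in EPSCs and 4.43-fold lower than in NSCs, and thus lay between the parents. Hybrid library 1 was the higher for Lrp1 and also for the summed fibroblast markers. NSCs, which grew without feeders, had more Lrp1 than hybrid cells, and the part of feeder cells was not tested.

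**Figure D5:**
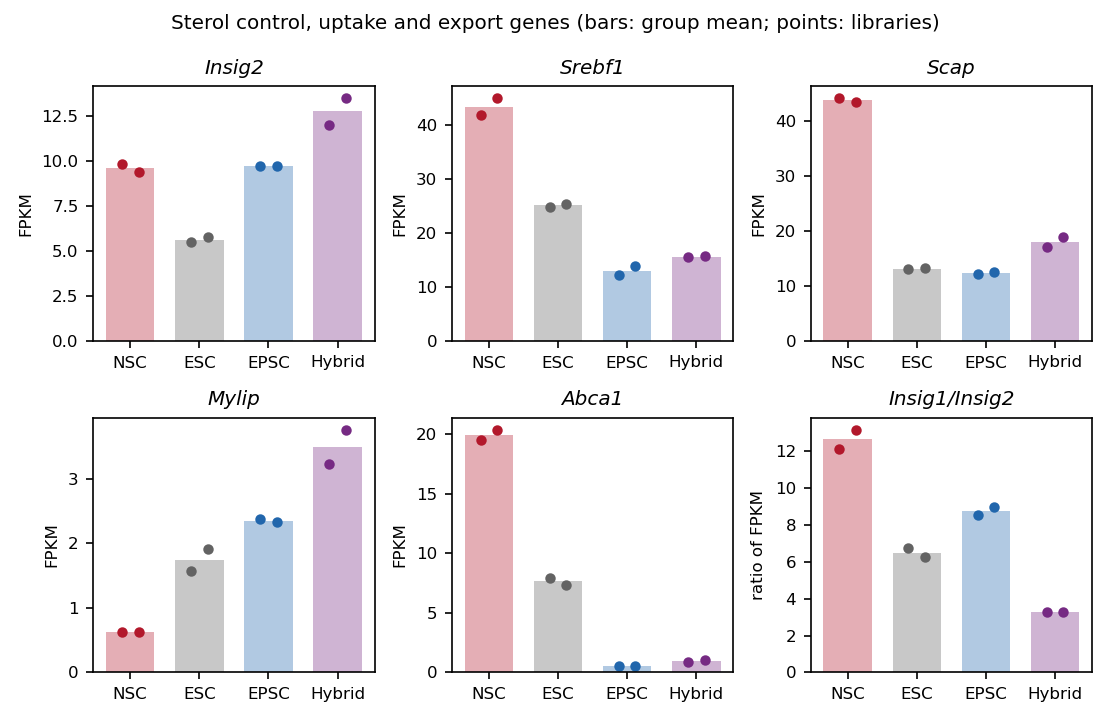
FPKM of 5 genes of sterol control, uptake and export, and the ratio of Insig1 to Insig2 FPKM (vertical axes, each from 0), in NSCs, ESCs, EPSCs and hybrid cells. Bars are group means and points the 2 libraries of a group. As deposited, hybrid cells have the highest Insig2, at 12.002 and 13.47 FPKM, the highest Mylip, and the lowest Insig1 to Insig2 ratio. With libraries scaled to an equal sum, NSCs would have the highest Insig2.

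Of 11 listed genes of the sterol-sensing LXR receptors, their targets and sterol efflux and esterification, 8 were tested. In EPSCs against ESCs 6 of them were lower, where 27.3% of tested genes were, and the other 2 were not called. Abca1, the exporter of cholesterol to apolipoprotein A-I, was at 19.5 and 20.4 FPKM in NSCs, 7.94 and 7.35 in ESCs, 0.872 and 1.08 in hybrid cells and 0.532 and 0.552 in EPSCs. By mean FPKM it was 14.1-fold lower in EPSCs than in ESCs, while the log2(FPKM + 1) scale gave a smaller difference (log2 -2.49, SE 0.09, limma adjusted p = 2.12e-06) and a pseudocount of 0.1 gave -3.59. Abcg1, a related exporter, was 9.07-fold lower by mean FPKM, at 0.617 and 0.502 against 5.21 and 4.94, with a log2 difference of -1.96 at a pseudocount of 1 and -2.98 at 0.1. Apoe, the lipoprotein that carries the exported sterol, was at 711 and 717 FPKM in EPSCs against 494 and 496 in hybrid cells (log2 -0.53, SE 0.08, limma adjusted p = 0.00259). It was the 1 tested gene of the list called lower in that comparison, where 21.9% of tested genes were, and 3 were called higher, where 22.5% were, with a median of 0.01. These 3 were Abca1 (log2 0.35), Soat1, which esterifies cholesterol (log2 0.51), and Smpdl3a (log2 0.44). The call of Soat1 was lost with only the 2 groups fitted (limma adjusted p = 0.0692) and that of Smpdl3a in 8 alternatives, among them without either EPSC library, without either NSC library and without hybrid library 1 (limma adjusted p = 0.0592 to 0.115 over the 8). In the branch that uses farnesyl diphosphate for other products, 8 of 13 genes were lower, where 21.9% of tested genes were, and 1 higher in hybrid cells than in EPSCs (median log2 -0.33). Coq2, of ubiquinone synthesis, was 2.53-fold lower, and Ggps1, which makes geranylgeranyl diphosphate, 1.62-fold lower. Against NSCs, 7 of the 13 were higher and 5 lower (median log2 0.14), close to the 44.5% and 42% of all tested genes.

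The patterns of the 7 genes were compared by the root mean square (RMS) difference of log2(FPKM + 1) over the 8 libraries after centring each gene. Among themselves, Fdps and Srebf2 were closest (RMS 0.11), followed by Idi1 and Fdps (0.12) and by Sqle and Idi1 (0.12). Ebp was farthest from the rest, at 0.81 to 1.48. Hmgcs1 stood next, at 0.52 to 0.71 from the other 5. Over all 13239 tested genes, the genes most like Hmgcs1 were Mid1ip1, Tubb4a and Fchsd2 (RMS 0.19 to 0.20), and Mid1ip1, a regulator of fatty acid synthesis, averaged 103 FPKM in NSCs, 25.4 in EPSCs, 17.5 in ESCs and 18.2 in hybrid cells. Sqle was most like Bmpr1a (RMS 0.04), Npc1 and Pdpr, and Idi1 most like Isoc1, Alg10b and Npc1. Fdps was most like Dck, Zfp40 and Fam216a, Insig1 like Fam84b, Gas2 and Zdhhc21, and Srebf2 like Dnajc3, Msl1 and Atxn7. Ebp was most like Prpf6, Harbi1 and Mrps15 (RMS 0.05 to 0.07). With 4 groups such likeness is a description, and the 8 libraries of each pair are shared.

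A ratio within a library also separated the groups among the 7 genes, and it too was chosen after the values were seen. Ebp relative to Sqle was 0.128 and 0.11 in NSCs, 0.41 and 0.409 in EPSCs, 0.534 and 0.478 in ESCs and 0.760 and 0.740 in hybrid cells. Hybrid cells thus had the most Ebp per Sqle transcript and NSCs the least, with no overlap between groups.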

How the data were processed

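RNA was sequenced from 8 libraries of cultured mouse cells, 2 per group. Per the labels and the study's methods, the authors used a stranded poly-A kit, trimmed reads, mapped them (STAR 2.7.9a) and computed gene levels by Cuffnorm (Cufflinks 2.2.1). The deposited values are FPKM per gene and library. The annotation, the strand setting and the library normalization are not given in the sources used here.

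FPKM were analysed as log2(FPKM + 1) with limma 3.58.1 in R 4.3.3 (lmFit, contrasts, eBayes with trend), with 4 groups in 1 fit, 4 residual and 3.25 prior degrees of freedom. Genes with a mean of at least 1 FPKM in at least 1 group were tested, two-sided, with Benjamini-Hochberg adjustment over 13239 genes. Called means an adjusted p under 0.05. The study's rule (mean over 3 FPKM, ratio over 3) was applied beside it. Every listed gene could be named, with its list counted, and a few that enter the counts, medians and sums of their lists are not reported here. The fit was tested on simulated data. Positions and promoters came from RefSeq and exon overlaps from GENCODE, all on GRCm38. Python 3.11.15 was used for tables and figures. The 7 genes and all lists were chosen with earlier results of these data known. Alternatives covered the pseudocount, the filter, scaling, quantile normalization, the groups fitted, the replicate block, the trend, the thresholds of the rule, and each library left out.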

Additional observations from a re-analysis of the deposited data

How the results depend on the processing

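Of 106 differences of single genes with a test, 102 were called. Of 1696 recomputed values, 1650 kept direction and call, 41 lost the call, 1 gained it and 4 changed sign, none of them of a called gene. The sign changes were Srebf2 in hybrid cells against ESCs (log2 -0.0091 with an equal sum, -7e-04 after quantile normalization, and -0.0142 without hybrid library 2, with -0.0142 to 0.1315 over the libraries left out) and Ebp in ESCs against NSCs (-0.41 with an equal sum, limma adjusted p = 0.000708, where the range over all alternatives was 0.000708 to 0.508). The causes were not tested. With libraries scaled to an equal sum, EPSCs against NSCs had 1 synthesis gene and 0 of the 7 genes higher, ESCs against NSCs 0 synthesis genes higher, and hybrid cells against ESCs 2 of the 7 higher. The median position of hybrid cells became 1.26. After quantile normalization, ESCs against NSCs had 2 synthesis genes and 1 of the 7 higher. A fit of only the 2 groups gave 2811 called genes in hybrid cells against EPSCs and 1 synthesis gene higher and 9 lower, with Nsdhl (limma adjusted p = 0.0576), Fdft1 (0.0596), Insig2 (0.0743), Mylip (0.0663), Srebf2 (0.0811), Soat1 (0.0692), Smpdl3a (0.0842) and Srebf1 (0.135) no longer called. The Srebf1 call in that comparison (0.0268) was lost in 7 alternatives in all, at 0.0566 to 0.135. With each library left out, the 7 genes higher in hybrid cells than in ESCs numbered 2 to 4, and the synthesis genes lower in EPSCs than in ESCs 0 to 1. With thresholds of 2, the study's rule gave 6355 genes in hybrid cells against NSCs (2 synthesis genes higher, 15 lower), 759 against EPSCs and 2176 against ESCs (1 higher), 6256 in EPSCs against NSCs (1 higher, 12 lower), 1722 in EPSCs against ESCs (2 higher) and 5977 in ESCs against NSCs (16 synthesis genes lower).

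The replicate numbers name no shared batch, and deviations of libraries with the same number correlated at r = -0.11 to 0.28 between groups. With the replicate block, limma called 6060 genes in hybrid cells against EPSCs and 5881 without it. No synthesis gene lost its call under the block in any of the 7 comparisons, and 1 gained it. With 2 libraries of 1 line per group, other lines were not measured, and whether depth limited any call was not tested.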
